A study of Mus musculus with 7 samples.

Results

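Voltage-gated sodium channels open when a neuron is depolarised and carry the inward current of the action potential. Each channel has 1 large pore-forming alpha subunit, encoded in these data by Scn1a, Scn2a, Scn3a and Scn8a (the proteins Nav1.1, Nav1.2, Nav1.3 and Nav1.6), and smaller beta subunits, here encoded by Scn2b, Scn3b and Scn4b, which set gating and surface level and act as adhesion molecules. In cortex and hippocampus Nav1.1 is best known from inhibitory interneurons, Nav1.2 from excitatory neurons, Nav1.6 from the axon initial segment and nodes of many neurons, and Nav1.3 from the developing brain. The members were the rows of the count table whose Ensembl ID carries 1 of these 7 symbols in GENCODE M21. All 7 were found among 39017 gene IDs, and all 7 passed the filter on low counts that left 19563 genes.

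The counts came from 7 mouse hippocampus libraries made by translating ribosome affinity purification (TRAP), in which ribosomes carrying a tagged protein are pulled down with the RNA on them. Per the labels, the mice were GAD2 cre+ and L10-EGFP+, so Gad2-driven Cre, active in GABAergic neurons, switched on an EGFP-tagged ribosomal protein, and 2 hippocampi were pooled for a TRAP sample. RNA captured on tagged ribosomes makes up the 3 bound libraries, whose titles start with GAD_ctrl. RNA labelled as unbound makes up the 4 unbound libraries, of which 2 are titled UBS (replicates 1 and 2) and 2 UBGS (replicates 3 and 4). The labels give no age, sex or strain, use their treatment entry only for bound or unbound, do not say what UBS, UBGS or "ctrl" stand for, and do not tie a bound library to an unbound one or to separate animals. A p-value here therefore covers only library-to-library spread, which may be technical. In such pooled tissue, fewer cells of a type and less RNA per cell cannot be told apart. Unbound RNA was not free of Gad2, the gene of the Cre driver, which stood at 189.6, 182.0, 111.7 and 114.4 CPM in unbound replicates 1 to 4.

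In alpha subunits, the loop that closes the channel from inside (the inactivation gate) carries a motif of 3 amino acids, isoleucine, phenylalanine and methionine. A stretch of 60 coding bases around it is shown for Scn8a, the alpha gene with the largest difference under TMM scaling without a length correction, from its GENCODE M21 transcript (GRCm38), 5′ to 3′, with the 3 codons in capitals.
Scn8a: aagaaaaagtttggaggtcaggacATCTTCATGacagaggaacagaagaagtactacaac
The stretch lies on the plus strand of chr15:101032314-101033528, intron included, and crosses the junction of exons 24 and 25 of that transcript.

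The 4 alpha genes are close relatives, so that reads of 1 gene could be counted for another. Over the coding sequence Scn2a and Scn3a were 83.9% identical over aligned bases, Scn1a and Scn2a 83.0%, and Scn8a 75% to 75.3% identical to the other 3. Of all 50-base stretches in the annotated transcripts of a gene, 4.03% in Scn1a, 5.76% in Scn2a, 6.49% in Scn3a and 0.037% in Scn8a also occurred in a transcript of another gene, among them other alpha genes and Scn9a. The share was 1.01% in Scn2b and 0 in Scn3b and Scn4b. How such reads were counted is not given in the sources used here, nor is the read length. No exon of the 7 genes overlapped an exon of another annotated gene.

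Scn4b encodes a beta subunit known for a stretch of its cytoplasmic tail that can block the open channel and give resurgent current. Its coding bases are shown because this subunit was the least abundant and had the largest fall of the 7, with the codons of the blocking core in capitals.
Scn4b: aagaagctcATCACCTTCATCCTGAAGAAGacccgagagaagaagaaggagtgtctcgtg
These 60 bases lie on the plus strand of chr9:45149352-45150426, across the junction of exons 4 and 5. The beta coding sequences were 59.2% to 61.5% identical to each other.

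Scn1a was the alpha subunit that rose in the bound RNA, while Scn2a, Scn3a and Scn8a fell, though with a correction for gene length Scn8a did not pass and Scn2a and Scn3a turned sign, as Scn3a also did with another library scaling. Levels are in CPM (counts scaled to the size of the library) scaled between libraries by TMM, which assumes that most genes do not differ. Fold changes are bound minus unbound on the log2 scale with their standard error (SE), and p-values are from edgeR's quasi-likelihood test, adjusted over all 19563 genes by the Benjamini-Hochberg method. Of the 7 members 2 were higher and 5 lower in bound libraries at an adjusted p under 0.05, where 61.7% of all genes tested passed, 31% of them as higher and 30.7% as lower. The ranges of the bound and unbound values were separate for all 7 members, as they were for 63.3% of all genes (31.7% higher, 31.6% lower). With this background, passing the test or not overlapping is not particular to the family.

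Scn1a (ENSMUSG00000064329) lies on chromosome 2 from 66270778 to 66440840. It stood at 179.8, 175.5 and 182.8 CPM in bound replicates 1 to 3 and at 123.9, 95.9, 119.7 and 122.3 CPM in unbound replicates 1 to 4. Every bound library was above every unbound one, and unbound replicate 2 was the lowest. The means were 179.4 ± 3.65 CPM (SD, n = 3) and 115.5 ± 13.2 CPM (SD, n = 4), a 1.55-fold rise (log2 0.64, SE 0.09, edgeR adjusted p = 9.9e-05), and 74.5% of all genes tested had a lower fold change. Leaving out 1 library at a time gave 0.57 to 0.69.

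Scn8a (ENSMUSG00000023033; chromosome 15 from 100869858 to 101045938) had the largest alpha difference on this scale, in the other direction. Bound replicates 1 to 3 held 242.6, 237.1 and 238.5 CPM and unbound replicates 1 to 4 held 504.6, 412.5, 439.3 and 439 CPM. The 3 bound values lay within a few CPM of each other, and the lowest unbound library was far above them. The mean fell from 448.8 ± 39.2 to 239.4 ± 2.83 CPM, a 1.87-fold fall (log2 −0.91, SE 0.08, edgeR adjusted p = 1.9e-06). This fall was −0.15 with an offset for merged exon length (edgeR adjusted p = 0.072) and −0.03 with one for the longest coding transcript (edgeR adjusted p = 0.740), which ended the call.

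Scn2a (ENSMUSG00000075318) and Scn3a (ENSMUSG00000057182) are neighbours in the alpha gene cluster of chromosome 2, from 65620771 to 65767447 and from 65457118 to 65567627. Bound replicates held 248.7, 243.8 and 227.2 CPM of Scn2a, and unbound replicates 342.5, 312, 331.2 and 341 CPM, with a wide gap between the groups. Its mean fell from 331.7 ± 14 to 239.9 ± 11.2 CPM, 1.38-fold (log2 −0.47, SE 0.07, edgeR adjusted p = 0.00010). Scn3a, the least abundant alpha member, stood at 52.6, 51.7 and 53.2 CPM in the bound replicates. All 4 unbound replicates were above these values, at 77.8, 62.7, 72.9 and 70.9 CPM. It fell 1.35-fold from 71.1 ± 6.27 to 52.5 ± 0.737 CPM (log2 −0.44, SE 0.08, edgeR adjusted p = 0.00090). Thus 2 genes of the cluster fell with TMM scaling, but not with the length correction, while Scn1a in the same cluster rose with both.

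**Figure D1:**
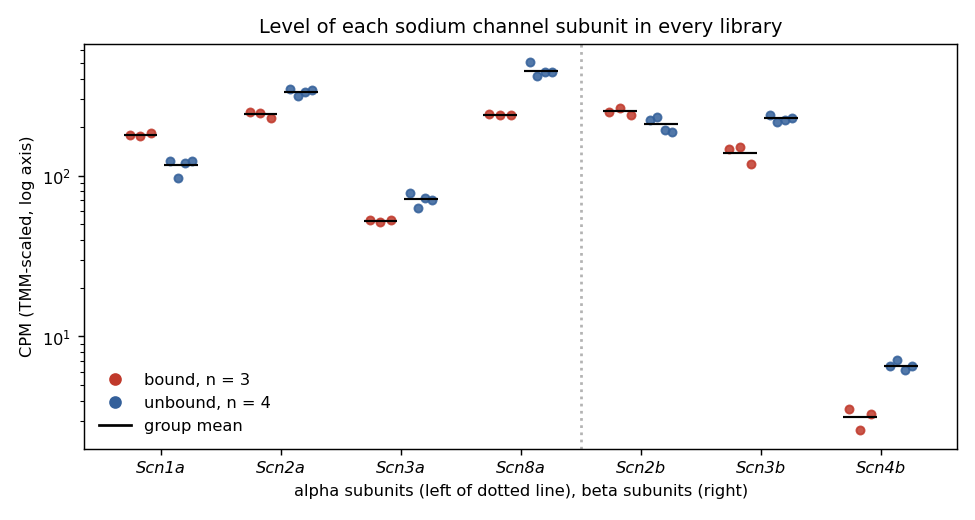
CPM of each subunit (log axis) in the 3 bound and 4 unbound libraries, 1 point per library, with horizontal lines at the group means. Bound points lie above unbound ones for Scn1a and Scn2b and below them for the other 5 genes on this TMM scale, of which Scn2a and Scn3a turn sign and Scn8a loses its call with a length offset.

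Among beta subunits Scn2b rose slightly and Scn3b and Scn4b fell. Scn2b (ENSMUSG00000070304; chromosome 9 from 45117782 to 45130070), whose protein is joined to alpha subunits by a disulfide bond, stood at 248, 262.6 and 239.2 CPM in bound libraries. Unbound libraries held 220.3, 231.4, 191.9 and 187.6 CPM, the 2 UBS libraries being nearest to the bound ones. The means were 249.9 ± 11.8 and 207.8 ± 21.4 CPM, a 1.2-fold rise (log2 0.27, SE 0.08, edgeR adjusted p = 0.018). This call was lost without bound replicate 2, without unbound replicate 3 and without unbound replicate 4 (edgeR adjusted p = 0.0615, 0.0561 and 0.0552) and against the UBS libraries alone (log2 0.15, edgeR adjusted p = 0.21).

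Scn3b (ENSMUSG00000049281; chromosome 9 from 40269217 to 40291618), whose protein binds alpha subunits without a disulfide bond, stood at 146.1, 149.8 and 117.5 CPM in bound replicates and at 237.7, 216.1, 222.9 and 229.1 CPM in unbound ones. Bound replicate 3 was the lowest of all, and the groups did not overlap. The mean fell 1.64-fold, from 226.4 ± 9.22 to 137.8 ± 17.7 CPM (log2 −0.72, SE 0.09, edgeR adjusted p = 3.8e-05). Scn4b (ENSMUSG00000046480; chromosome 9 from 45138395 to 45154152) starts 8325 bases after the end of Scn2b on the same strand. It stood at 3.54, 2.61 and 3.31 CPM in bound replicates and at 6.58, 7.13, 6.16 and 6.52 CPM in unbound ones, from 146 to 305 counts each, and every unbound value was above every bound one. Its mean fell 2.09-fold, from 6.60 ± 0.402 to 3.16 ± 0.486 CPM (log2 −1.06, SE 0.18, edgeR adjusted p = 0.00038), so the 2 neighbouring beta genes moved in opposite directions.

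By subunit kind, 1 of 4 alpha members was higher and 3 were lower (median log2 −0.45), and 1 of 3 beta members was higher and 2 were lower (median log2 −0.72). With the length offset on merged exons 1 alpha member was higher and none lower (median log2 0.16), and the beta counts were the same. With the offset for the longest coding transcript Scn1a, Scn2a (0.22, edgeR adjusted p = 0.014) and Scn3a (0.30, edgeR adjusted p = 0.0086) were higher. Scn8a did not pass there, and 6131 of 19563 genes were higher and 5308 lower. With TMM alone the median of all genes tested was −0.01. Both kinds thus held members of each direction with TMM alone, and beta members also with the length offset. Tested against a minimum fold of 1.5, Scn8a and Scn4b passed and the other 5 members did not, where 35% of all genes passed. Bound libraries held a summed alpha level of 711.2 ± 11.3 CPM against 967.1 ± 67.8 CPM in unbound ones, and the summed beta level 390.8 ± 28.1 and 440.9 ± 22.1 CPM. Per kilobase of exon, which allows genes to be compared within a library, the alpha sum divided by the beta sum was 0.685, 0.641 and 0.729 in bound libraries. In unbound libraries it was 0.827, 0.709, 0.846 and 0.853, so that bound replicate 3 lay above unbound replicate 2 and the groups overlapped. Division by a fixed exon length does not remove a length trend that differs between the groups. This ratio of sums was not computed with the length offset.

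The sizes and some directions of these fold changes depended on how gene length and library scaling were treated. Alpha genes are long, with 11146 to 15766 bases of merged exon against 4656 to 5461 in the beta members. The 1457 tested genes with at least 10000 bases of exon had a median log2 fold change of −0.60, those with 4000 to under 6000 bases −0.11, and those under 1000 bases 0.47. With an offset that removes the trend with exon length in each library (the length offset), Scn1a stood at 1.17 and Scn8a at −0.15. Scn2a and Scn3a then turned to 0.15 and 0.17, and these 3 did not pass (edgeR adjusted p = 0.072 for Scn8a, 0.059 for Scn2a and 0.092 for Scn3a). In that fit 59.3% of all genes passed (32% higher, 27.3% lower), and Scn1a, Scn2b (0.40), Scn3b (−0.51) and Scn4b (−0.90) were the members that did.

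Scaling by library totals in place of TMM moved the median of all genes to 0.43 and the share of higher genes among calls from 50.3% to 71.5%. Relative to that shift the members were again spread to both sides, with Scn1a at 1.07 and Scn2b at 0.70 above it and Scn2a (−0.03), Scn3a (0.000906), Scn8a (−0.47), Scn3b (−0.28) and Scn4b (−0.63) below it. Mitochondria-encoded RNA made up 28.5% to 32.9% of counts in unbound and 0.0867% to 0.123% in bound libraries. With those genes left out before scaling, Scn1a stood at 0.64 and Scn8a at −0.90.

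**Figure D2:**
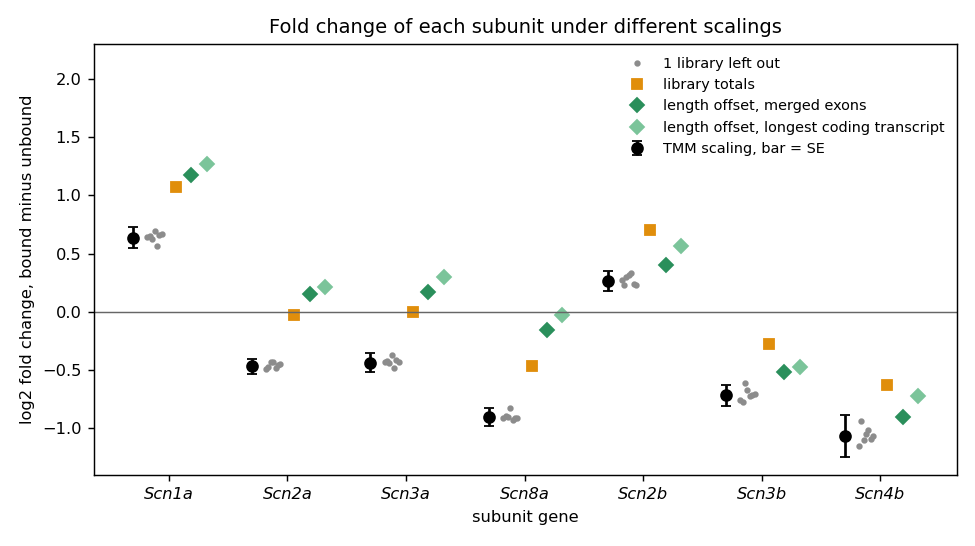
Log2 fold change (bound minus unbound) of each subunit with TMM scaling (black, bar = SE), with each library left out in turn (grey), with library totals (orange squares) and with 2 forms of the length offset (green diamonds). Scn1a and Scn2b lie above 0 and Scn8a, Scn3b and Scn4b below 0 in all settings drawn, while Scn2a and Scn3a cross 0.

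Ratios between 2 subunits in the same library do not depend on library scaling, and all 21 pairs were compared. The log2 ratio of a pair did not overlap between bound and unbound libraries in 17 of 21 pairs, against 61.1% of all pairs of tested genes. With 3 against 4 libraries the smallest p that a two-sided exact permutation test can give is 0.0571, which these 17 pairs reached (0.0706 after Benjamini-Hochberg adjustment over the 21 pairs), so no pair could pass 0.05.

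Scn1a gained against every other member. Its log2 ratio to Scn8a was −0.42 ± 0.03 in bound (SD, n = 3) and −1.96 ± 0.12 in unbound libraries (SD, n = 4), a 2.92-fold shift, with every bound library above every unbound one. Its ratio to Scn2a shifted 2.16-fold, from −1.53 ± 0.12 to −0.42 ± 0.09, and its ratio to Scn3a 2.11-fold, from 0.70 ± 0.07 to 1.77 ± 0.01. All 4 genes are long, and with the length offset the shifts in log2 were 1.33, 1.03 and 1.01 in place of 1.55, 1.11 and 1.08. Against Scn2b the shift was smaller, 0.37 in log2, and 0.78 with the length offset.

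Scn2a and Scn3a were the pair that moved most alike, at 2.19 ± 0.08 in bound and 2.23 ± 0.08 in unbound libraries, a difference of −0.04 (exact permutation p = 0.63, adjusted p = 0.63). Groups also overlapped for Scn8a against Scn3b (difference −0.18, exact permutation p = 0.23), Scn8a against Scn4b (0.17, exact permutation p = 0.34) and Scn3b against Scn4b (0.35, exact permutation p = 0.17). With the length offset the difference of Scn8a against Scn3b turned to 0.37 and that against Scn4b stood at 0.76. Scn2a and Scn3a in turn gained against Scn8a, by 0.44 and 0.47. Scn2b gained against Scn3b by 1.0 and against Scn4b by 1.34.

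**Figure D3:**
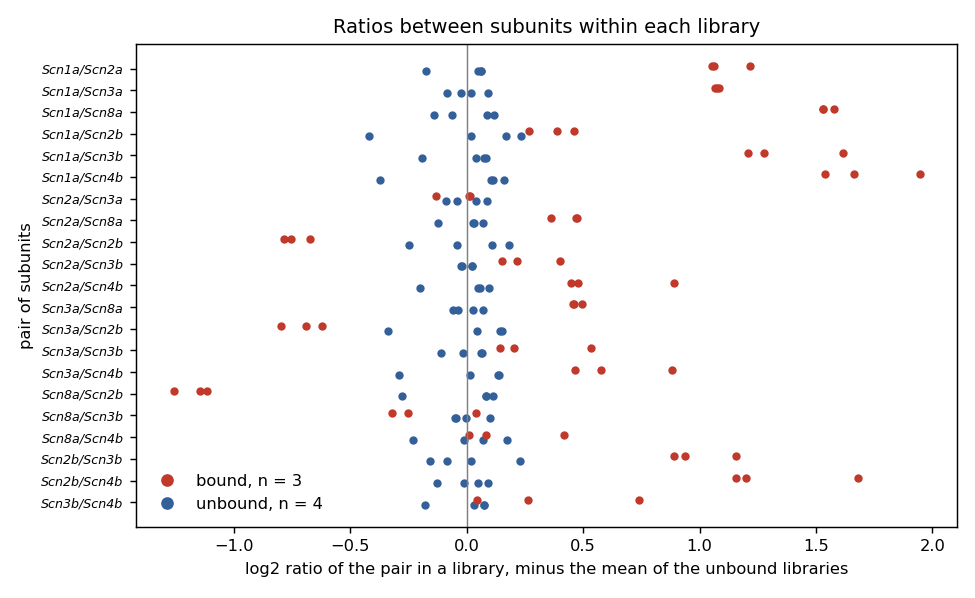
Log2 ratio of each of the 21 pairs of subunits in every library, minus the mean of that ratio in the unbound libraries, with bound libraries in red and unbound in blue. All pairs that hold Scn1a lie to the right in the bound libraries, and Scn2a/Scn3a lies around 0 in both groups.

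Per kilobase of merged exon, Scn8a and Scn2a led in unbound RNA and Scn2a, Scn1a and Scn8a stood close together in bound RNA. In unbound libraries the levels were 28.5 ± 2.49 CPM per kilobase for Scn8a, 26.1 ± 1.10 for Scn2a, 10.4 ± 1.18 for Scn1a and 5.70 ± 0.504 for Scn3a, and the ranges of Scn8a and Scn2a overlapped. In bound libraries they were 18.8 ± 0.884 for Scn2a, 16.1 ± 0.328 for Scn1a, 15.2 ± 0.180 for Scn8a and 4.21 ± 0.0591 for Scn3a, with no overlap between neighbours. Of the beta members, Scn2b stood at 53.7 ± 2.53 and Scn3b at 25.2 ± 3.24 CPM per kilobase in bound libraries, and at 44.6 ± 4.6 and 41.5 ± 1.69 in unbound libraries, where their ranges overlapped. Scn4b was lowest in both, at 0.633 ± 0.0976 and 1.32 ± 0.0807 CPM per kilobase.

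As a share of the summed alpha level per kilobase, Scn1a made up 29.2%, 29.1% and 30.6% in bound replicates 1 to 3 and 14.6%, 13.4%, 15.2% and 15.4% in unbound replicates 1 to 4. Scn8a made up 27.8%, 27.8% and 28.2% in bound and 42.0%, 40.7%, 39.5% and 39.1% in unbound libraries. The share of Scn2a was 34.7% ± 1.21 in bound and 37.0% ± 1.23 in unbound libraries, and that of Scn3a 7.76% ± 0.171 and 8.07% ± 0.211, with overlap between the groups in both. On this scale the change in make-up between groups thus lay mostly in Scn1a and Scn8a. Shares were not computed with the length offset, under which Scn1a rose by 1.17 and Scn8a stood at −0.15 (edgeR adjusted p = 0.072). With the longest coding transcript as length, Scn1a and Scn8a stood at 28.7% ± 0.820 and 28.0% ± 0.242 in bound libraries and their ranges overlapped, so their order there depended on the length used.

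**Figure D4:**
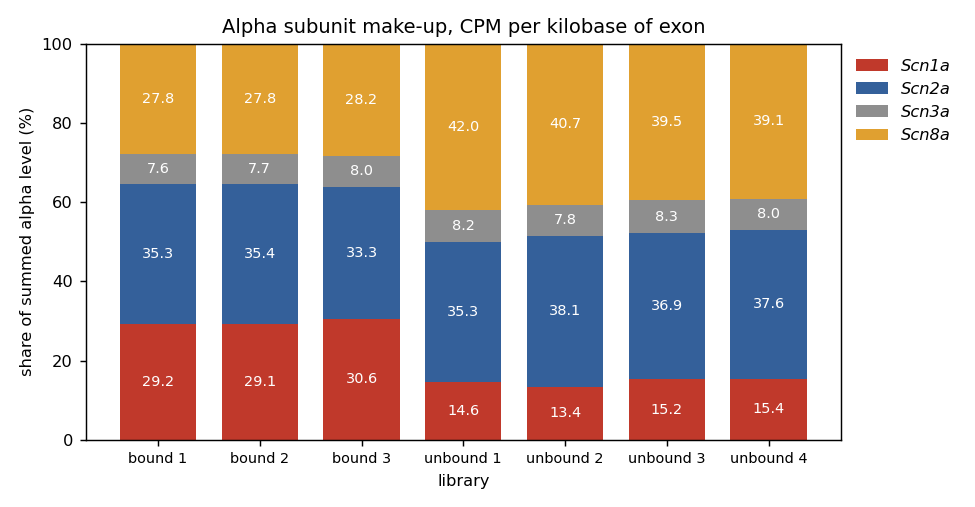
Share of each alpha subunit (%) in the summed alpha level (CPM per kilobase of merged exon) in each library. The Scn1a share is 29.1% to 30.6% in bound and 13.4% to 15.4% in unbound libraries, and the Scn8a share 27.8% to 28.2% and 39.1% to 42.0%.

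Gad2 was among the genes that differed between the 2 UBS and 2 UBGS libraries (log2 0.71, edgeR adjusted p = 0.022). Within the unbound group no member passed the test between the 2 UBS and the 2 UBGS libraries (edgeR, 0 of 7, where 0.229% of 19256 genes passed). DESeq2 also called 0 of 7, and 1 member had an unadjusted p under 0.05 in each, Scn2b, where 16.8% of genes did in edgeR. Scn2b stood at 220.3 and 231.4 CPM in UBS and at 191.9 and 187.6 CPM in UBGS libraries (log2 0.25, SE 0.06, edgeR adjusted p = 0.18). The difference of Scn1a between the series was −0.14 (SE 0.12, edgeR adjusted p = 0.58), and those of the other 5 members ranged from −0.04 to 0.11. Without unbound replicate 1 the test called 3 members (and 23.5% of all genes), Scn1a (−0.33), Scn3a (−0.20) and Scn2b (0.29). Without unbound replicate 2 it called 2 (and 36.9% of all genes), Scn2b (0.21) and Scn8a (0.19), with the lone UBS library assumed to vary like the UBGS pair.

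Of 5 other alpha genes of the family considered, 3 passed the filter, 1 of them (Scn11a) only through the bound libraries. Scn11a (Nav1.9, known from sensory neurons) had 21, 22 and 36 counts in bound and 0, 4, 0 and 0 counts in unbound libraries, unbound replicate 2 holding all 4, and no fold or test is given for it. Scn10a (Nav1.8, also of sensory neurons), which did not pass the filter, had 30, 65 and 6 counts in bound and 0, 0, 2 and 0 in unbound libraries. Scn4a (Nav1.4 of skeletal muscle) had 0 counts in each bound library and 0, 1, 2 and 4 in unbound libraries. Scn9a (Nav1.7) did not pass, at 17.5 ± 1.17 and 15.5 ± 1.33 CPM (log2 0.18, edgeR adjusted p = 0.19). It did with the length offset (0.80) and with library totals (0.61, median of all genes 0.43). Scn7a, whose product Nax senses sodium, fell from 3.94 ± 1.12 to 2.3 ± 0.544 CPM (log2 −0.77, edgeR adjusted p = 0.030), and this call was lost without bound replicate 2 or 3 or unbound replicate 2, against the UBGS libraries alone, with library totals and with the length offset.

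Fibroblast growth factor homologous factors are cytoplasmic proteins that bind the tail of alpha subunits and shift inactivation. Their 4 genes split evenly, with 2 higher and 2 lower (median log2 0.29), where 31% of all genes tested were higher and 30.7% lower. However, Fgf13 stood at 0.01 with library totals (median of all genes 0.43) and did not pass against the UBGS libraries alone (−0.34, edgeR adjusted p = 0.061). Fgf12 rose from 85.7 ± 4.90 to 252.9 ± 16.8 CPM (log2 1.56, SE 0.07, edgeR adjusted p = 2.4e-08) and Fgf11 from 64.7 ± 5.36 to 128.4 ± 17.4 CPM (log2 0.99). Fgf14 fell from 72.0 ± 3.73 to 47.4 ± 5.09 CPM (log2 −0.60) and Fgf13 from 159.5 ± 8.11 to 119.5 ± 20.8 CPM (log2 −0.42). With the length offset the 4 genes had the same directions and passed (1.82, 0.91, −0.52 and −0.36), where 59.3% of all genes passed. With library totals Fgf14 stood at −0.17, which did not pass.

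Ankyrins, spectrins and adhesion molecules hold sodium channels at the axon initial segment and at nodes. Of 7 such genes 5 fell and none rose (median log2 −0.48, all genes −0.01). Of all genes tested 30.7% passed as lower and 31% as higher, and those with at least 10000 bases of exon had a median of −0.60. However, Ank3, Ank2 and Sptbn4 turned sign with the length offset. With the offset for the longest coding transcript Ank3 was still lower (−0.27, edgeR adjusted p = 0.0099), Ank2 stood at −0.17 (edgeR adjusted p = 0.099) and Sptbn4 at 0.30 (edgeR adjusted p = 0.080). Ank3, which encodes ankyrin-G, the anchor of Nav channels at the initial segment, fell from 402.2 ± 28.2 to 195.9 ± 18.8 CPM (log2 −1.04), and Ank2 (ankyrin-B) from 553 ± 72.1 to 234.6 ± 20.2 CPM (log2 −1.24). The adhesion genes Nrcam (−0.99) and Cntn1 (−0.48) and the spectrin gene Sptbn4 (−0.37) fell as well. Nfasc, which encodes neurofascin (0.01, edgeR adjusted p = 0.91), and Trim46, whose product orders axonal microtubules (0.15, edgeR adjusted p = 0.15), did not pass. Most of these genes have long exons, and with the length offset on merged exons 2 were higher (Nfasc 0.69, Ank3 0.20) and 1 was lower (Nrcam −0.34). In that fit 32% of all genes passed as higher and 27.3% as lower. With library totals the median of all genes was 0.43, and 9285 of 19563 genes were called higher. On that scale Sptbn4 stood at 0.06 and Cntn1 at −0.04, and neither passed, while Nfasc (0.44) and Trim46 (0.59) were called higher. The call of Sptbn4 was also lost without bound replicate 1 or 2 or unbound replicate 2, 3 or 4 (log2 −0.26 to −0.37), and against either unbound series alone.

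Genes for the processing, modification and removal of channel subunits were considered together. Of 7 such genes 1 rose and 4 fell (median log2 −0.25), where 31% of all genes tested were higher and 30.7% lower. Of the 4 that fell, Nedd4 (0.048), Bace1 (0.19) and Csnk2a1 (0.013) were above 0 with library totals, but below the median of all genes in that setting, 0.43. Nedd4 and Bace1 also turned sign with the length offset. Scnm1, which encodes a splicing factor that modifies Scn8a splicing in mice, rose from 15.2 ± 2.32 to 33.8 ± 1.99 CPM (log2 1.15, SE 0.12, edgeR adjusted p = 1.1e-05). Nedd4l, a ubiquitin ligase that takes sodium channels from the membrane, fell from 264.5 ± 3.45 to 106.1 ± 8.52 CPM (log2 −1.32), and its relative Nedd4 also fell (−0.39). Csnk2a1 encodes a subunit of casein kinase 2, an enzyme that strengthens the bond between Nav channels and ankyrin-G, and it fell by 0.42. Bace1, a protease that cuts beta subunits, fell by little (−0.25), and the call was lost without bound replicate 2 or 3 or unbound replicate 1 or 4 (log2 −0.19 to −0.25), and against either unbound series alone. Exons of Bace1 overlapped those of other genes by 32.5% of their length. The calmodulin genes Calm2 (−0.22) and Calm3 (−0.10) did not pass. Calm2 did pass without unbound replicate 1 (−0.39) and against the UBGS libraries alone (−0.44, edgeR adjusted p = 0.010), but stood at 0.078 against the UBS libraries alone. Unbound replicate 1 held 1517 CPM of Calm2, and the other unbound libraries 2818 to 3191 CPM. With the length offset 1 gene was higher (Scnm1, 0.92) and 3 were lower (Nedd4l −0.50, Calm2 −0.59, Calm3 −0.29), where 32% of all genes were higher and 27.3% lower. Calm3 did not pass with the offset for the longest coding transcript (−0.17, edgeR adjusted p = 0.13). With library totals it was called higher (0.33, edgeR adjusted p = 0.0084), though below the median of all genes in that setting.

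**Figure D5:**
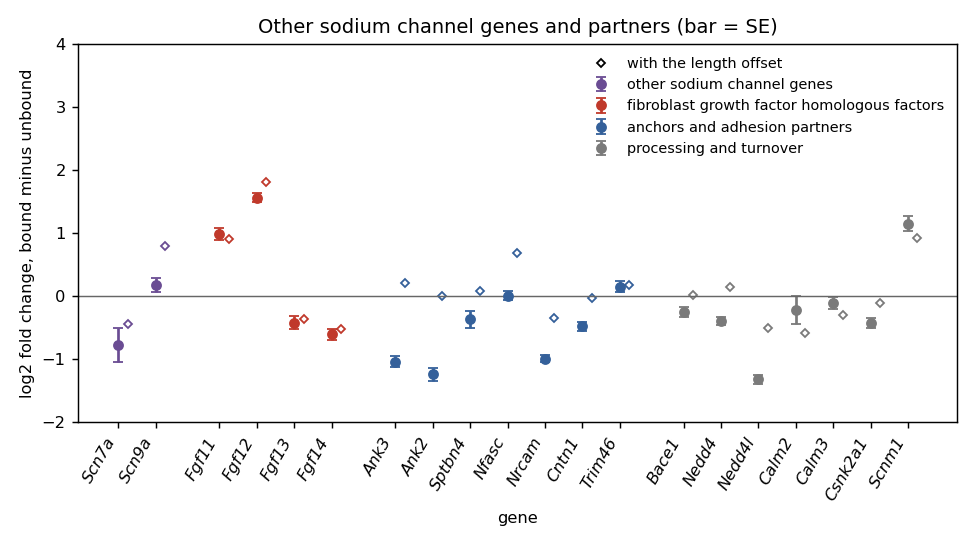
Log2 fold change (bound minus unbound, bar = SE) of the other sodium channel genes tested and of 3 groups of partner genes, with open diamonds for the values with the length offset. Scn11a, with 0 counts in 3 libraries, is not drawn. Fgf11 and Fgf12 lie above 0, and the long anchor genes move up with the length offset (merged exons).

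The profile of each member over the 7 libraries was compared with those of 8590 other protein-coding genes with a mean of at least 10 CPM (8591 for Scn4b), by the root mean square difference of centred log2 CPM. Since the 7 libraries form 2 groups, this likeness mostly reflects a like fold change between them. Nearest to Scn1a was Zfp35 (difference 0.04), to Scn2a Spin1 and Oxct1 (0.02 and 0.03), to Scn3a Pcdh9 and Heatr5b (0.04 and 0.05) and to Scn8a Igf1r and Rbbp5 (0.04 and 0.04). Nearest to Scn2b were Tprgl and Ubtf (0.03 and 0.05), to Scn3b Sdcbp and Fam163a (0.03 and 0.04) and to Scn4b Pkia and Nebl (0.04 and 0.07). The median difference over all genes compared was between 0.34 and 0.61. No member was among the 2 nearest genes of another.

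The pull-down was checked on markers. For comparison, 31% of all genes tested were higher and 30.7% lower in bound libraries. All 8 GABAergic neuron genes were higher in bound libraries (median log2 3.44), Gad2 standing at 745.5 ± 20.3 CPM there. All 8 excitatory neuron genes (median −4.50, led in level by Camk2a and Hpca) and all 7 oligodendrocyte genes (median −1.84, led by Mbp) were lower, as were 7 of 8 astrocyte (median −2.70, led by Slc1a2 and Aldoc), 6 of 7 oligodendrocyte precursor (median −2.71, led by Olig1 and Sox10) and 5 of 7 endothelial and mural genes (median −2.04, led by Rgs5 and Vtn). No marker of the 8 lists had 0 counts in any library. Summed excitatory markers stood at 1131 to 1428 CPM in the bound group against 5581 to 7430 CPM. Of 9 parvalbumin interneuron genes, 7 were higher and 1 lower (median 1.21, summed level 1991 to 2584 against 736.9 to 797.5 CPM), with Cplx1 and Kcnc1 the most abundant. The genes that went against their list were named after their values were seen: Syt2 (−0.87) was the lower parvalbumin interneuron gene and C1ql1 (1.64) a higher precursor gene, while Nefh, Gfap, Pecam1 and Flt1 did not pass. All 10 microglia genes were higher (median 2.02, led by Laptm5 and Csf1r), at a sum of 314.3, 734.4 and 259.8 CPM in bound replicates 1 to 3 and 85.7 to 126.8 CPM in unbound libraries. Without bound replicate 2, where that sum was highest, 1 member was higher and 5 were lower, Scn2b being the call lost. In that fit 11820 of 20117 genes tested passed. The part of these other cell types in the values of the sodium channel genes was not tested.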

How the data were processed

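The deposited table holds raw read counts per gene, whole numbers that the authors did not normalize, for 39017 Ensembl IDs in 7 libraries. The tools named in the submitters' processing notes are STAR 2.5.3a and HTSeq, with the build mm10. Which annotation release and strand setting were used, and how reads with several matches were treated, is not given in the sources used here. IDs were matched to GENCODE M21 (GRCm38, the assembly of mm10), which named 37693. The smallest library held 38690380 counts and the largest 51953811. Pairs of libraries within a group had a chi-square per degree of freedom of 5.57 to 46.3, so none was counted as a repeat of another.

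Counts were filtered with filterByExpr, scaled by TMM and tested with edgeR 4.0.16 (quasi-likelihood, robust) in R 4.3.3, with no block. SEs were derived from the F statistic. The test was checked on simulated data for bound against unbound with 19150 genes, of which 200 were changed. Of 100 genes given a log2 change of 1, 74 were called, and of 100 given a change of 2, 98 were. Another 13 unchanged genes were called, 7.03% of the calls, which is above the adjusted p threshold of 0.05. In the real data 61.7% of all genes tested passed. The check therefore does not show how TMM scaling and the error rate behave where so many genes differ. Exon length is that of all annotated exons merged. The length offset is a lowess curve (span 0.3) of log2 CPM differences on log2 exon length, fitted per library. Ratios were tested by exact permutation in scipy 1.17.1, and transcripts compared with biopython 1.88. Alternatives were DESeq2 1.42.0, library totals, no filter, the length offset, no mitochondria-encoded genes, a minimum fold of 1.5, each unbound series alone and each library left out. Lengths taken from the longest coding transcript were an alternative chosen after seeing the data.

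Named genes are the 7 members, the genes of the 4 lists on other sodium channel genes and partners, the 2 genes nearest in profile to each member, and the 2 most abundant of each marker list. Some genes and sequences that this rule would name are not reported here, and the counts, medians and sums of the lists leave those genes out. The members and lists were chosen with earlier results of these data known.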

Additional observations from a re-analysis of the deposited data

Results flagged for a closer look

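Among the 4 unbound libraries, a value was singled out where its gap to the nearest other library was a larger part of the group's range than Dixon's 95% critical value allows. Over the 7 levels, 4 alpha shares and 21 pair ratios, 32 groups were tested and 7 were singled out, where chance gives about 1 in 20, and the levels, shares and ratios share data. All 7 were unbound replicate 2, titled UBS. Its Scn1a level was 95.9 CPM against 119.7 to 123.9 CPM in the other 3 unbound libraries. Its log2 ratio of Scn1a to Scn2a was −1.70 (others −1.48 to −1.47), of Scn1a to Scn3b −1.17 (−0.94 to −0.90) and of Scn1a to Scn4b 3.75 (4.23 to 4.28). The ratio of Scn2a to Scn4b was 5.45 (5.70 to 5.75), of Scn8a to Scn2b 0.83 (1.19 to 1.23) and of Scn3b to Scn4b 4.92 (5.13 to 5.18). Without this library the fold change of Scn1a between bound and unbound libraries was 0.57 on the log2 scale, in place of 0.64.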

How the results depend on the processing

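No paired analysis was possible because the bound titles are numbered 1 to 3 and the unbound ones 7, 8, 8 and 9, so the groups share no number. Scn1a, Scn2b, Scn3b, Scn4b and Scn8a kept their direction in all alternatives run, and over all members, libraries left out aside, 49 values kept direction and call, 9 lost the call and 5, those of Scn2a and Scn3a, turned direction. With a library left out, 46 kept both and 3, of Scn2b, lost the call. Against a minimum fold of 1.5, 6854 genes passed, and Scn1a (0.64), Scn2a (−0.47), Scn3a (−0.44), Scn2b (0.27) and Scn3b (−0.72) did not. Library totals, which moved the median of all genes to 0.43, gave Scn2a −0.030, Scn3a 0.000906, Fgf13 0.011, Sptbn4 0.062, Bace1 0.19, Nedd4 0.048, Calm2 0.21, Calm3 0.33 (called higher) and Csnk2a1 0.013. The length offset gave Scn2a 0.15, Scn3a 0.17, Scn8a −0.15, Ank3 0.20, Ank2 0.012, Sptbn4 0.082, Bace1 0.018, Nedd4 0.14 and a log2 ratio of Scn8a to Scn3b of 0.37. Built on the longest coding transcript, it gave Scn2a 0.22, Scn3a 0.30 (both then called higher), Scn8a −0.028, Sptbn4 0.30, Bace1 0.19 and Nedd4 0.0035. DESeq2 gave Nfasc −0.018, and the UBS libraries alone Scn2b 0.15 and Calm2 0.078. Adding 1 CPM turned the ratio of Scn8a to Scn4b to −0.024. Without division by exon length, alpha shares differed by 13.3 points for Scn1a, −0.631 for Scn2a and 0.0432 for Scn3a. The cause of these changes was not tested.

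With each library left out in turn, 10861 to 11831 genes passed and Scn2b ranged from 0.23 to 0.33. Nfasc ranged from −0.045 to 0.093, Calm3 from −0.20 to 0.00149, and the log2 ratio of Scn2a to Scn3a from −0.064 to 0.012, the sign turning without bound replicate 1 or 3 for Nfasc, without bound replicate 1 for Calm3 and without bound replicate 3 for the ratio. Between the UBS and UBGS libraries, 301 genes passed in DESeq2, 104 without a filter, and 16 to 7389 with 1 library left out. Scn3b stood at −0.00054 without a filter. With 1 unbound library left out, the UBS minus UBGS difference ranged from −0.33 to 0.029 for Scn1a, −0.11 to 0.022 for Scn2a, −0.20 to 0.11 for Scn3a, −0.089 to 0.19 for Scn8a, 0.21 to 0.29 for Scn2b and −0.063 to 0.067 for Scn3b, and the signs of the alpha genes turned without replicate 1 or 2. Depth limits few of these values, since Scn4b, the lowest member, had at least 146 counts in each library.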
